A study of Mus musculus with 22 samples.

Results

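Messenger RNA was sequenced from the thymus, cerebrum and cerebellum of mice carrying the Tol transgene and of wild-type (WT) littermates, and the potassium channel subunits of the Kcn gene family were followed through the 3 organs. Members were the protein-coding genes whose GRCm38 gene symbol begins with Kcn, without Kcnj13, which left 93 of the 94 annotated protein-coding Kcn genes among 34585 listed genes. Tol mice were heterozygous for a scrambled, non-functional fusion of reporter and modifier proteins, expressed from the ubiquitous CAG promoter at a site 3′ of Col1a1. The transgene was placed there by cassette exchange in an embryonic stem cell clone, and both genotypes had the C57BL/6 background. Animals were used at 7 to 14 weeks of age. Each genotype gave 4 thymi and 4 cerebra, while cerebella came from 2 Tol and 4 WT mice. Levels are counts scaled to a common library total by trimmed mean of M values (CPM), and levels of different genes were compared only after division by the length of the longest protein-coding transcript (CPM per kilobase).

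Potassium channels let potassium ions leave the cell along their gradient and so set the resting potential and end the action potential. Voltage-gated subunits open on depolarisation, and silent subunits form no channel of their own but change the voltage-gated channels they join. Ion-activated subunits respond to internal calcium or sodium. Inward rectifiers hold the membrane near rest, tandem-pore subunits carry background current, and auxiliary subunits bind the pore-forming ones and alter their opening or transport. In T cells a voltage-gated and a calcium-activated channel keep the membrane negative, which sustains calcium entry after antigen recognition, while neurons use many subunits in combinations that differ between cell types.

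Pore-forming subunits share a short filter through which potassium passes, and its codons are shown for members that stood out in an organ below. A coding pattern for this filter, ACNNTNGGNTNNGGN read in frame on the coding strand (threonine, a residue with T as its middle codon base, glycine, a residue whose codon starts with T, and glycine), was searched in the longest complete GENCODE coding sequence of each gene. It was found in 63 of the 93 members (67.7%) and in 186 of all 21388 coding sequences searched (0.870%). All 10 silent subunits, 13 of 14 inward rectifiers, 12 of 14 tandem-pore subunits, 23 of 30 voltage-gated subunits and 5 of 8 ion-activated subunits held it. None of the 17 auxiliary subunits did. Among the tandem-pore subunits, 11 held it at least 2 times. Each line gives 30 bases, 5′ to 3′, with the match in capitals. The first lines are from genes highest in the thymus, Kcna3 at chr3:107037605-107037634 on the plus strand of GRCm38 and the pair of Kcnk5 filters, of which the first spans an exon junction and the second lies at chr14:20144639-20144668 on the minus strand.
Kcna3: atgacaACTGTTGGTTATGGTgatatgcac
Kcnk5 first pore: atcaccACCATCGGTTATGGCaatgtggct
Kcnk5 second pore: atctccACCATTGGCTTTGGGgactttgtg
The next lines are from genes highest in the cerebellum, Kcnc1 at chr7:46427967-46427996 on the plus strand and Kcng4 at chr8:119625901-119625930 on the minus strand.
Kcnc1: atgacgACACTGGGCTATGGAgacatgtat
Kcng4: atgacgACCGTGGGCTATGGGgacatggtc
The last line is from a gene highest in the cerebrum, Kcnf1 at chr12:17175052-17175081 on the minus strand.
Kcnf1: atgaccACAGTGGGCTATGGTgacatctac
Kcnc2, of the same subfamily as Kcnc1, differed from it at 9 of the 30 bases.

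Library totals ran from 14543698 to 34776973 counts, with a median of 21577753.5. Kcn genes took 0.0704% of counts in WT thymus and 0.649% in WT cerebrum. The transgene transcript had 448 to 4628 counts in the 10 Tol libraries and 0 to 2 in the 12 WT libraries. In 1 library the markers went against the label. Marker levels are given as the mean log2(CPM + 1) of a list. In the library labelled Cerebellum Tol 2 the granule cell markers stood at 4.50, against 8.59 to 9.82 in the other 5 cerebella, and the Purkinje cell markers at 5.12, against 8.04 to 9.43. Of the thalamus and midbrain list, Tcf7l2 read 274 CPM there and 136 CPM in Cerebellum WT 1, and at most 6.36 CPM in the other 4. Lef1 of that list was also highest in Cerebellum Tol 2, at 33.5 CPM. Prkcd, Rora and Zic4 went the other way, lower in Cerebellum Tol 2 than in the other 5 cerebella. The list as a whole stood at 5.71 in Cerebellum Tol 2, 6.19 in Cerebellum WT 1 and 5.04 to 5.42 in the other 4. Striatal markers stood at 8.13 in Cerebrum WT 3 and 7.13 in Cerebrum Tol 4, against 3.71 to 4.74 in the other 6 cerebra. Choroid plexus markers stood at 5.55 in Cerebellum WT 2 and 7.16 in Cerebellum WT 4, against 1.78 to 2.18 in the other 4 cerebella. Several results are given with and without these libraries.

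The brain organs used many more Kcn genes than the thymus. Of the 93 members, 72 reached 1 CPM in every WT cerebrum, 57 in every WT cerebellum and 29 in every WT thymus. Summed over all members, the level per kilobase was 1475 ± 201 CPM per kilobase in cerebrum (SD, n = 4), 1453 ± 109 in cerebellum (SD, n = 4) and 186 ± 7.66 in thymus (SD, n = 4). Among the members with a mean of at least 1 CPM in some organ, 44 were highest in cerebrum, 29 in cerebellum and 8 in thymus. The shares of all genes that reached 1 CPM or were highest in each organ are not given here. These counts are therefore not set against genes in general. Kcnj1 alone stayed under 3 counts in all 22 libraries. In whole organs, fewer cells of a type and less RNA per cell cannot be told apart.

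**Figure D1:**
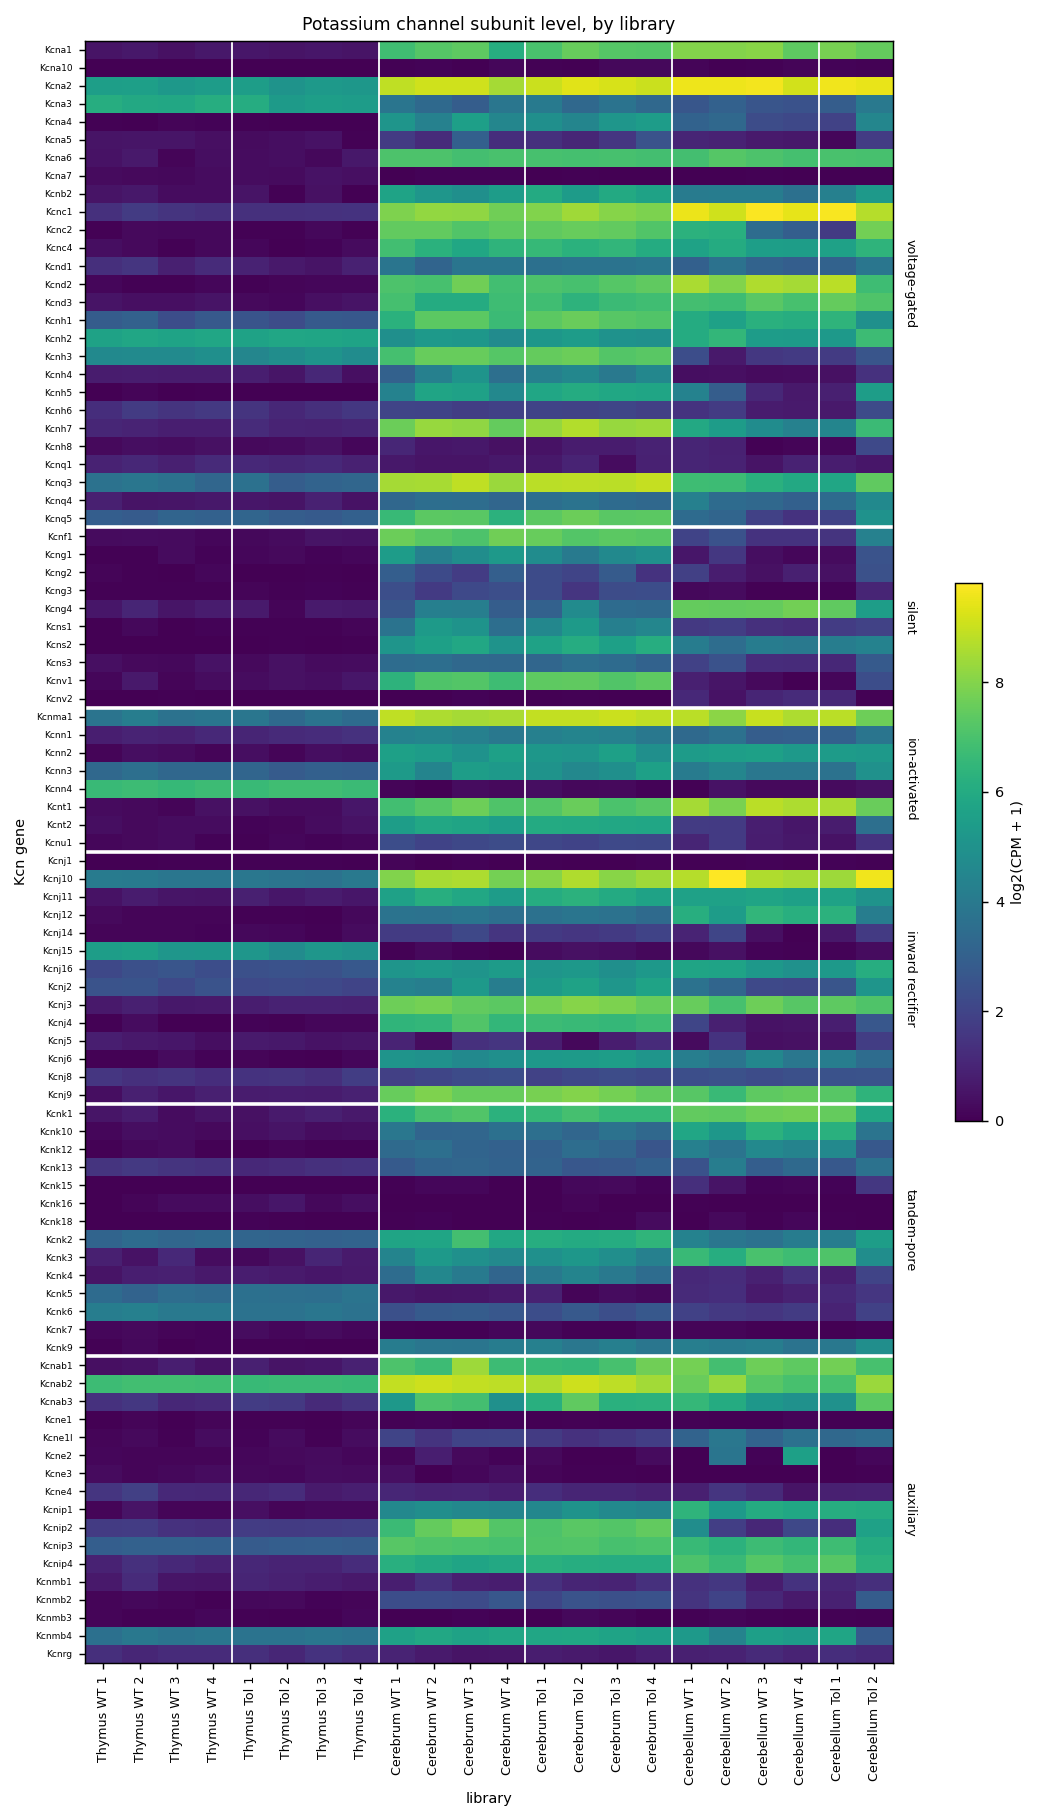
Level of 90 of the 93 Kcn genes (rows, grouped by class) in the 22 libraries (columns, grouped by organ and genotype), as log2(CPM + 1) on the colour scale. The thymus columns are dark apart from a few rows such as Kcnn4, Kcna3, Kcnj15 and Kcnab2, and the Cerebellum Tol 2 column differs from the Cerebellum Tol 1 column in many rows.

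The organs divided their Kcn transcripts differently among the classes. Ion-activated subunits made up 29.9% ± 0.448 of the summed CPM per kilobase in WT thymus (SD, n = 4), against 6.61% ± 0.820 in cerebrum and 7.84% ± 1.12 in cerebellum. Nearly all of the thymus share came from the calcium-activated Kcnn subfamily, at 29.2% ± 0.392. Silent subunits held 6.58% ± 0.663 in cerebrum and 3.79% ± 0.442 in cerebellum but 0.240% ± 0.0588 in thymus. Voltage-gated subunits were the largest class in every organ by this measure, at 33.3% ± 1.44 in thymus, 36.9% ± 0.894 in cerebrum and 43.3% ± 1.95 in cerebellum. Within that class the subfamilies changed with the organ. Kcna genes, relatives of the Shaker channel of the fly, held 20.2% ± 1.51 in thymus and 7.24% ± 0.621 in cerebrum, while Kcnc genes, whose fast channels let neurons fire at high rates, held 21.8% ± 2.02 in cerebellum, 8.34% ± 0.934 in cerebrum and 0.208% ± 0.0323 in thymus. Kcnq genes, which carry the slow M-current, held 8.82% ± 0.710 in cerebrum and 3.14% ± 0.332 in cerebellum. Inward rectifiers held 16.1% ± 0.409 in cerebrum and 15.9% ± 2.73 in cerebellum, a difference smaller than the spread between cerebellar libraries. That spread came from Cerebellum WT 2, without which the cerebellar share was 14.6%, and the other 3 cerebella, at 14.3% to 14.8%, were below all cerebra, at 15.7% to 16.7%. The shares depend on the length used: without division by length, the voltage-gated share was 52.7% ± 0.638 in cerebrum and the ion-activated share 21.1% ± 0.444 in thymus, and with the median transcript length the auxiliary class was the largest in thymus, at 34.6%.

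**Figure D2:**
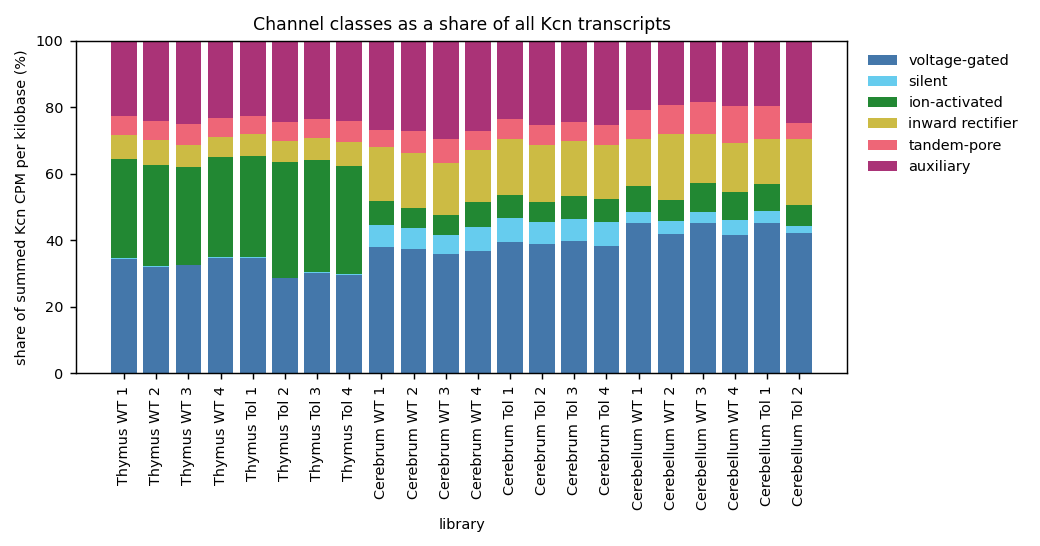
Share of the summed Kcn CPM per kilobase (vertical axis, percent) held by each of 6 classes in every library. The ion-activated part is wide in all 8 thymus libraries, 29.3% to 34.97%, and narrow in the brain libraries.

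In thymus a calcium-activated channel, a voltage-gated channel and a cytosolic subunit were the highest of the family. Per kilobase of the longest transcript, the highest members of the WT thymus were Kcnn4, the calcium-activated channel of lymphocytes, at 50.8 ± 2.66 CPM per kilobase, Kcna3, the main voltage-gated channel of T cells, at 33.5 ± 2.89, and Kcnab2, a cytosolic subunit that binds Kcna channels, at 28.3 ± 1.08 (SD, n = 4). The WT thymi read 100.2, 106, 94.1 and 104 CPM for Kcnn4, and the 8 WT brain libraries read 0 to 0.392 CPM. All thymus libraries were thus far above all brain libraries, in which Kcnn4 had 9 counts over the 4 cerebra together. For Kcna3 the WT thymi read 68.2, 60.3, 57.9 and 68.7 CPM, the cerebra 12.9, 9.20, 6.43 and 13.49 CPM and the cerebella 5.16, 7.24, 5.06 and 4.58 CPM. Kcna3 was present in all organs and highest in thymus, with a log2 fold change of -2.62 ± 0.21 (SE) for cerebrum minus thymus and an adjusted p of 8.40e-08 (edgeR). The order of the 3 depends on the length: Kcnab2 was the highest without division by length, at 111 CPM against 101 for Kcnn4, and with the median transcript length, at 70.4 ± 2.68 CPM per kilobase against 52.0 ± 2.72 for Kcnn4 and 33.5 ± 2.89 for Kcna3 (SD, n = 4). Kcnj15, an inward rectifier also known from kidney, read 42.7, 47.0, 34.4 and 35.4 CPM in the WT thymi and 0 to 0.349 CPM in the WT brain libraries. Scaled by library totals, the pooled counts of Kcnn4 in thymus were 1026-fold (95% interval 540.4 to 2245) those in cerebrum, and those of Kcnj15 were 715-fold (95% interval 306 to 2204). The exact binomial intervals cover counting error only. The tandem-pore subunits Kcnk5 and Kcnk6 completed the group: Kcnk5 stood at 9.34 ± 1.18 CPM in thymus and 0.518 ± 0.0664 in cerebrum, and Kcnk6 at 16.1 ± 1.68 and 5.46 ± 0.902 (SD, n = 4).

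Most members were higher in either brain organ than in thymus. A member was called when its adjusted p was under 0.05 and its fold change over 2, in 1 fit of the 12 WT libraries that tested 80 of the 93 members. Against thymus, 67 members were higher in cerebrum, or 83.8% of those tested, where 30.2% of all 17413 genes tested were. Only 7 members were lower, or 8.75%, against 29.7% of all genes. Calls in either direction came to 74, where 59.9% of all genes were called. In cerebellum 58 members were higher than in thymus (72.5%, against 29.7% of all genes) and 7 were lower (8.75%, against 27.4%), 65 in all, where 57% of all genes were called. Both comparisons share the thymus libraries. The median log2 fold change of the members was 5.50 for cerebrum minus thymus and 3.96 for cerebellum minus thymus, while the median of all genes was -0.06 and 0.01. All 9 silent subunits tested were higher in cerebrum than in thymus, as were 23 of 27 voltage-gated, 10 of 13 inward rectifier, 8 of 10 tandem-pore, 7 of 8 ion-activated and 10 of 13 auxiliary subunits. Those lower in cerebrum were Kcnn4, Kcnj15, Kcnk5, Kcna3, Kcnk6, Kcnq1 and Kcnrg. Those lower in cerebellum were Kcnn4, Kcnj15, Kcna3, Kcnk5, Kcnk6 and the related genes Kcnh3 and Kcnh4. The call of Kcnh4 rests on few counts, 26 over the WT cerebella and 65 over the WT thymi. Kcnq1 and Kcnrg were the closest to the limits, with log2 fold changes of -1.09 ± 0.30 and -1.05 ± 0.28 (SE) and adjusted p values of 0.00452 and 0.00327 (edgeR). Kcnrg was not called (log2 fold change -0.89) once Cerebrum WT 3, Cerebellum WT 1 and Cerebellum WT 2 were left out, and Kcnq1 was not called (-0.97) without Thymus WT 4.

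Several of the largest differences from thymus were in genes that the thymus barely expressed. Kcnd2, which carries the fast transient current of dendrites, read 134, 122, 205 and 113 CPM in the WT cerebra and 378, 250.1, 402 and 364 CPM in the WT cerebella, against 0.0484 to 0.141 CPM in the WT thymi. Scaled by library totals, its pooled counts in cerebrum were 1119.7-fold (95% interval 589.6 to 2449) those in thymus. Kcns2, a silent subunit, had 0 counts in all 4 WT thymi and was at least 986-fold higher in cerebrum, taking 3 counts over the group as the floor. Kcnh3, a relative of the ether-a-go-go channels, had another order: 160.4 ± 32.5 CPM in cerebrum, 25.7 ± 2.04 in thymus and 2.20 ± 1.39 in cerebellum (SD, n = 4). Exons of Kcnh3 overlap those of Mcrs1 on the other strand, and whether the counting used strand is not given in the sources used here.

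**Figure D3:**
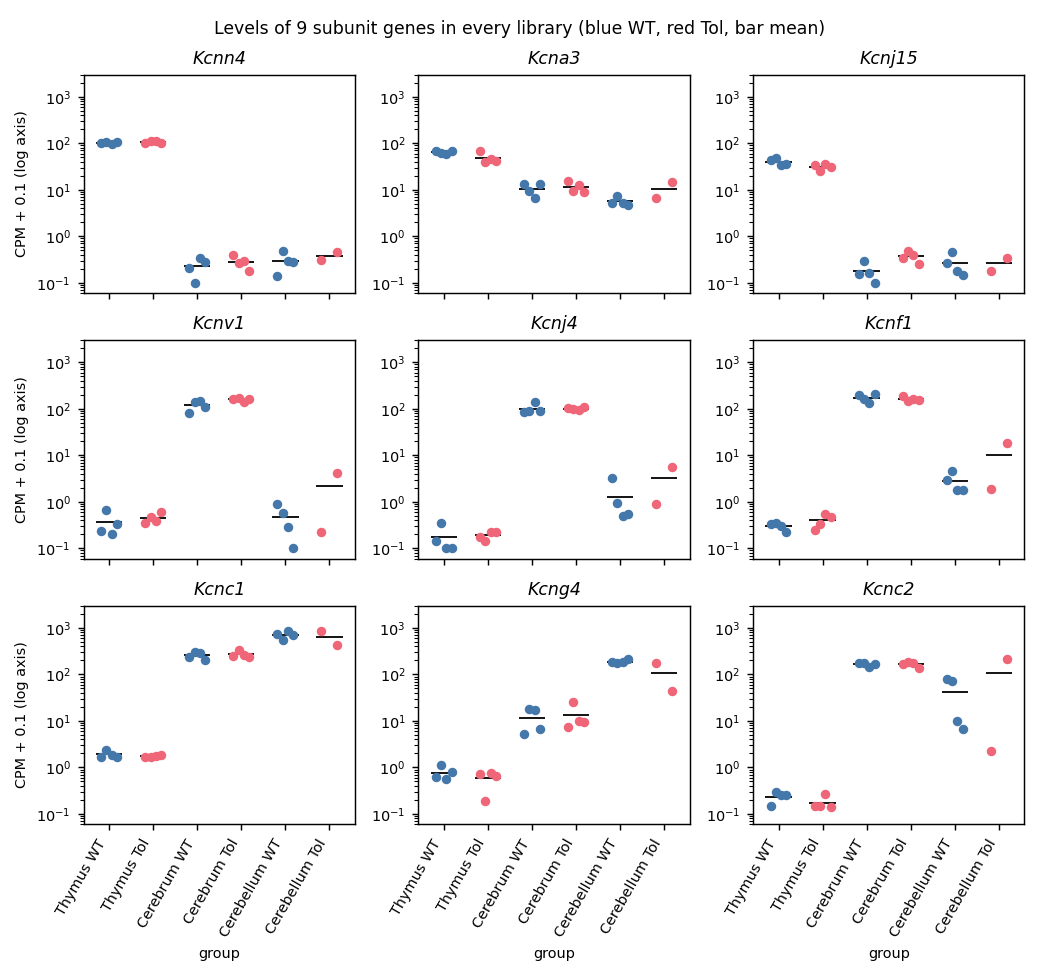
Level of 9 subunit genes in every library (vertical axis, CPM + 0.1 on a log axis), by organ and genotype, with the mean of each group as a bar. Kcnn4, Kcna3 and Kcnj15 are highest in thymus, Kcnv1, Kcnj4 and Kcnf1 in cerebrum, and Kcnc1 and Kcng4 in cerebellum, while the cerebellar values of Kcnc2 run from 2.14 to 209 CPM.

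WT cerebrum and WT cerebellum divided the family between them. Of the 80 members tested, 33 were higher in cerebrum (41.2%, against 10.2% of all genes tested) and 12 were higher in cerebellum (15%, against 8.34%), 45 in all (56.2%, against 18.5%). Per length Kcnab2 was the highest member in cerebrum at 125 ± 8.33 CPM per kilobase, and Kcnj10 at 96.1 ± 47.4 and Kcnc1 at 91.8 ± 16.6 were among the highest in cerebellum (SD, n = 4). Without Cerebellum WT 2 the level of Kcnj10 was 72.6 ± 6.08 CPM per kilobase (SD, n = 3). In both organs Kcnk1 was among the 10 highest by the longest transcript, with all libraries and without Cerebrum WT 3 or Cerebellum WT 2. Kcnab1 was among them in cerebrum at 52.4 ± 34.1 CPM per kilobase (SD, n = 4), but not without Cerebrum WT 3, at 35.5 ± 5.19 (SD, n = 3). The silent subunits gave the clearest split: 8 of 9 were higher in cerebrum and 1, Kcng4, was higher in cerebellum. The other 35 members were not called, among them Kcnab1 and Kcnma1 with log2 fold changes of -0.03 ± 0.34 and -0.01 ± 0.17 (SE) for cerebrum minus cerebellum. Without Cerebrum WT 3 the value of Kcnab1 was -0.59 ± 0.20 (SE; adjusted p = 0.0277, edgeR), still within the 2-fold limit.

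**Figure D4:**
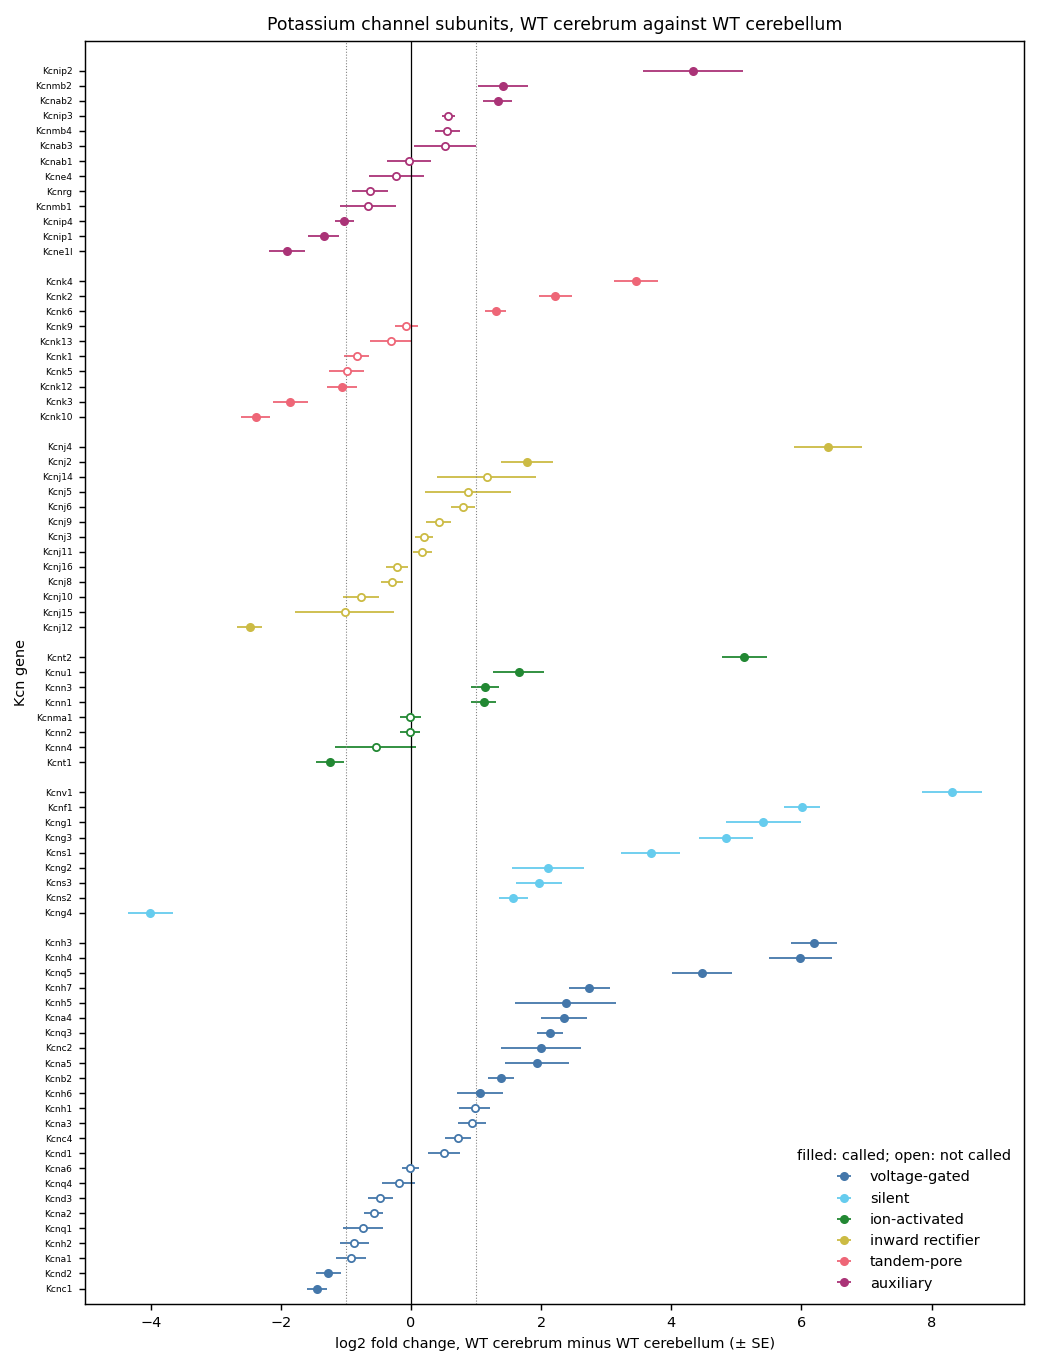
Log2 fold change of 77 of the 80 tested members, WT cerebrum minus WT cerebellum (horizontal axis, bars ± SE), grouped and coloured by class, with filled points for called members and dotted lines at a 2-fold change. Kcnv1 lies farthest to the right at 8.31 and Kcng4 farthest to the left at -4.01.

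Among the voltage-gated subunits, 13 of 27 were higher in cerebrum and 3 in cerebellum, where 10.2% and 8.34% of all genes were. Kcnc1 and Kcnd2 were among the 3. The WT cerebella read 730.0, 549, 864 and 705 CPM for Kcnc1, and the WT cerebra 242, 297, 292 and 206 CPM. Every cerebellum was above every cerebrum, with a log2 fold change of -1.45 ± 0.15 (SE) and an adjusted p of 8.34e-06 (edgeR). Kcnc2, another gene of this subfamily, went the other way in the mean, at 165 ± 16.6 CPM in cerebrum and 41.7 ± 38.7 CPM in cerebellum (SD, n = 4). Its cerebellar libraries were split, with 78.0, 72.4, 10.04 and 6.55 CPM in WT 1 to WT 4. Its log2 fold change was 2.00 ± 0.61 (SE) with all libraries and 4.38 without Cerebrum WT 3, Cerebellum WT 1 and Cerebellum WT 2. Kcnh3 read 119, 186, 187 and 151 CPM in the WT cerebra and 3.99, 0.610, 2.01 and 2.18 CPM in the WT cerebella. Kcnh3 and Kcnh4 had the largest differences of the class, 6.19 ± 0.36 and 5.98 ± 0.48 (SE). Kcnh4 was near the floor in cerebellum, with 26 counts over the 4 WT libraries together. Scaled by library totals, its pooled counts in cerebrum were 57.5-fold (95% interval 39.0 to 88.4) those in cerebellum.

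The silent subunits held the largest called difference in each direction between cerebrum and cerebellum. Kcnv1, which joins Kcnb channels and reduces their current, read 80.7, 137, 144 and 109 CPM in the WT cerebra and 0.797, 0.479, 0.193 and 0 CPM in the WT cerebella. The cerebellar values were near the floor of 3 counts. Scaled by library totals, the pooled counts in cerebrum were 289-fold (95% interval 207 to 415) those in cerebellum. Kcnf1 read 195, 159, 134 and 205 CPM in cerebra and 2.90, 4.49, 1.74 and 1.70 CPM in cerebella, a log2 fold change of 6.01 ± 0.28 (SE). Kcng4 had the reverse pattern, with 181, 177, 181 and 209 CPM in the cerebella and 5.15, 17.6, 17.2 and 6.47 CPM in the cerebra, a log2 fold change of -4.01 ± 0.35 (SE) and an adjusted p of 1.84e-06 (edgeR). Within the cerebra, Kcng4 was high in WT 2 and WT 3 and low in WT 1 and WT 4, but no cerebrum reached the lowest cerebellum. Kcng1 stood at 31.1 ± 10.8 CPM in cerebrum and 0.738 ± 0.887 in cerebellum, and Kcns1 at 23.7 ± 14.3 and 1.85 ± 0.494 (SD, n = 4).

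Of 13 inward rectifiers tested between cerebrum and cerebellum, 2 were higher in cerebrum, 1 was higher in cerebellum and 10 were not called. Of all genes tested, 10.2% were higher in cerebrum and 8.34% in cerebellum. Kcnj4, a strong rectifier of forebrain neurons, read 85.7, 90.7, 139.6 and 89.1 CPM in the WT cerebra and 3.15, 0.828, 0.386 and 0.436 CPM in the WT cerebella (6.41 ± 0.52, SE; adjusted p = 1.12e-06, edgeR). Kcnj12, another strong rectifier, read 69.5, 41.9, 87.6 and 73.1 CPM in the cerebella and 12.3, 12.2, 13.0 and 11.0 CPM in the cerebra (-2.48 ± 0.19, SE). These 2 genes thus had opposite patterns with no overlap of libraries in either. Kcnj10, the potassium-buffering rectifier of glia, read 423, 902, 397 and 357 CPM in the cerebella and 250.0, 365, 385 and 215 CPM in the cerebra. The highest of these values belonged to Cerebellum WT 2, where the oligodendrocyte markers stood at 10.6, against 8.86 to 9.33 in the other 3 WT cerebella, and the part of that in the Kcnj10 value was not tested. Kcnj9 stood at 199.6 ± 26.5 CPM in cerebrum and 149 ± 35.7 in cerebellum (SD, n = 4; adjusted p = 0.0763, edgeR).

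The tandem-pore subunits split evenly, with 3 of 10 higher in cerebrum and 3 higher in cerebellum, where 10.2% and 8.34% of all genes were. Kcnk10, a background channel opened by stretch and lipids, read 54.9, 35.8, 75.2 and 54.9 CPM in the WT cerebella and 13.9, 8.30, 8.41 and 11.3 CPM in the WT cerebra (-2.39 ± 0.23, SE). Its relative Kcnk2 was higher in cerebrum, at 70.3 ± 30.6 CPM against 15.2 ± 3.29 (SD, n = 4; log2 fold change 2.22 ± 0.25, SE). Kcnk3, an acid-sensitive background channel, read 101, 67.9, 128 and 108 CPM in cerebella and 20.8, 38.1, 29.1 and 23.6 CPM in cerebra (-1.85 ± 0.27, SE). No cerebrum reached the lowest cerebellum for Kcnk10 or Kcnk3. Of the ion-activated subunits, 4 of 8 were higher in cerebrum and 1 in cerebellum. The sodium-activated pair differed in direction: Kcnt1 was higher in cerebellum (-1.24 ± 0.21, SE) and Kcnt2, named after its value was seen, in cerebrum (5.13 ± 0.35, SE). Kcnma1, the large-conductance calcium-activated channel, stood at 399.9 ± 50.7 CPM in cerebrum and 405 ± 96.2 in cerebellum (SD, n = 4).

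Auxiliary subunits also divided, with 3 of 13 higher in cerebrum and 3 in cerebellum, where 10.2% and 8.34% of all genes were. The Kcnip genes, calcium-binding partners of Kcnd channels, fell on both sides. Kcnip2 read 101, 178, 257 and 147 CPM in the WT cerebra and 27.1, 2.57, 1.12 and 3.40 CPM in the WT cerebella, so that Cerebellum WT 1 stood apart from the other cerebella. Its log2 fold change was 4.33 ± 0.77 (SE) with all libraries and 6.00 without Cerebrum WT 3, Cerebellum WT 1 and Cerebellum WT 2. Kcnip1 and Kcnip4 were higher in cerebellum (-1.34 ± 0.23 and -1.02 ± 0.14, SE), as was Kcnd2 itself, which read 250.1 to 402 CPM in the cerebella and 113 to 205 CPM in the cerebra. Kcnab2 read 479, 534, 487 and 456 CPM in cerebra and 189.6, 319, 152 and 123 CPM in cerebella (1.33 ± 0.22, SE). Kcne2, a small subunit of epithelial channels, read 0, 13.2, 0.0772 and 46.2 CPM in the WT cerebella and at most 0.772 CPM in any other library of the series. Its only high libraries were Cerebellum WT 2 and WT 4, the ones with choroid plexus markers at 5.55 and 7.16, and the part of choroid plexus in its level was not tested.

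Leaving out Cerebrum WT 3, Cerebellum WT 1 and Cerebellum WT 2 together, an alternative chosen after the marker levels were seen, gave 51 called members for cerebrum minus cerebellum in place of 45, and all 45 were among them. The same omission left 65 calls for cerebellum minus thymus, of which 61 were also called with all libraries. Kcnip2 and Kcng1 lost their call in that comparison: Kcnip2 went from 2.12 to 0.20 (adjusted p = 0.695, edgeR) and Kcng1 from 2.98 to 1.20 (adjusted p = 0.283, edgeR). Kcnmb1 and Kcnj14, the latter named because its call was lost, fell under the limits too, at 0.79 and 0.85. With Tol libraries in place of WT, 29 members were called for cerebrum minus cerebellum, and 51 once Cerebellum Tol 2 was left out as well. In that last fit the cerebellum is 1 library, which is assumed to vary like those of the other groups. Without Cerebellum WT 4, the library with the highest choroid plexus markers, 48 members were called for cerebrum minus cerebellum, 44 of them also with all libraries, and 64 for cerebellum minus thymus, 63 of them also with all libraries.

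Members varied more between WT libraries of a brain organ than genes in general. Among members with a mean of at least 10 CPM, the median coefficient of variation was 24.9% over the WT cerebra (58 members), against 8.62% for all 10409 genes at that level. It was 23.8% over the WT cerebella (45 members), against 10.6%, and 9.24% over the WT thymi (12 members), against 6.07%. The gap was smaller in Tol. There it was 14.4% over the cerebra (59 members), against 8.12%, and 8.41% over the thymi (12 members), against 8.03%. Kcnab1, which speeds the inactivation of Kcna channels, read 135, 106, 334 and 105 CPM in the WT cerebra and 98.3, 92.0, 123 and 206 CPM in the Tol cerebra. Its highest libraries in each genotype were Cerebrum WT 3 and Cerebrum Tol 4, those with high striatal markers, whose part in the level was not tested. Kcnip2, Kcnj2 and Kcnj4 were also highest of the WT cerebra in WT 3. Kcnab3, Kcns1 and Kcnh5 had another order, with WT 2 and WT 3 above WT 1 and WT 4: Kcnh5 read 19.6, 52.5, 48.2 and 23.3 CPM and Kcns1 12.5, 39.7, 31.8 and 10.7 CPM in WT 1 to WT 4. Kcnab3 was chosen after its values were seen and read 37.1, 135, 117 and 29.1 CPM.

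A total of 9 pairs of members lie within 100 kb of each other, and several neighbours differed in organ pattern. On chromosome 3, Kcna3 (chr3:107036169-107038070) and Kcna2 (chr3:107101146-107115005), on the plus strand of GRCm38, are separated by 63076 bases. Kcna3 was highest in thymus, while Kcna2 stood at 41.9 ± 4.13 CPM in thymus, 481 ± 91.5 in cerebrum and 719 ± 109 in cerebellum (SD, n = 4), and their neighbour Kcna10 did not reach 1 CPM in any library. On chromosome 14, Kcnk5 was highest in thymus, and Kcnk16, 79567 bases away, stayed under 1 CPM in all libraries. On chromosome 1, Kcnj9 and Kcnj10, 11892 bases apart on opposite strands, were both well expressed in the brain organs and neither was called between them, with log2 fold changes of 0.43 ± 0.19 and -0.77 ± 0.28 (SE) for cerebrum minus cerebellum. Without Cerebellum WT 2 these were 0.27 and -0.36. On chromosome 11, Kcnj16 and Kcnj2 are 38196 bases apart, and Kcnj2 was called higher in cerebrum (1.78 ± 0.40, SE) while Kcnj16 was not called (-0.22 ± 0.17, SE). Kcnmb1 lies within Kcnip1 on the other strand without sharing exons. Kcna1 and Kcna6 on chromosome 6 were both brain genes: Kcna6 stood at 127 ± 7.80 and 129 ± 14.6 CPM in cerebrum and cerebellum, and Kcna1 at 124 ± 44.0 and 236 ± 48.8 (SD, n = 4).

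Genes whose proteins assemble with potassium channels or anchor them were taken as a list of 22, of which 21 were tested between WT organs. Against thymus, 19 were higher in cerebrum (90.5%, against 30.2% of all genes tested) and 20 in cerebellum (95.2%, against 29.7%), and 0 were lower in either (against 29.7% and 27.4%). Between cerebrum and cerebellum, 2 were higher in cerebrum (9.52%, against 10.2%) and 4 in cerebellum (19.0%, against 8.34%), with a median log2 fold change of -0.20. Dlg4, the scaffold of Kcna channels and glutamate receptors, was higher in cerebrum (1.50 ± 0.12, SE), and so was Lrrc55, an accessory of the Kcnma1 channel (2.34 ± 0.36, SE). Cntn2, which clusters Kcna channels beside the nodes of myelinated axons, was higher in cerebellum (-1.43 ± 0.17, SE). Abcc8, the sulfonylurea receptor that joins Kcnj11, was also higher there (-1.04 ± 0.19, SE), as were Lrrc38 (-1.14 ± 0.35, SE) and the pacemaker channel gene Hcn4 (-1.68 ± 0.38, SE). Dpp6 and Dpp10, partners of Kcnd channels, were not called, at -0.35 ± 0.19 and -0.20 ± 0.15 (SE).

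Tol was compared with WT to test for stress or deregulated pathways in cells that express the transgene. In thymus no member passed an adjusted p under 0.05 in edgeR's quasi-likelihood test, where 0.105% of all 16249 genes did, and 49 of the 93 members were tested. At an unadjusted p under 0.05 there were 9 members (18.4%, against 24.4% of all genes), of which 8 were lower and 1 higher in Tol. The lower members were 16.3% of those tested, against 11.1% of all genes, and the higher 2.04%, against 13.3%. The median log2 fold change of the members was -0.03, and that of all genes 0.01. DESeq2 gave 2 members, Kcnk6 and Kcnab2, both lower in Tol. The 9 members were 2 voltage-gated, 2 inward rectifier, 2 tandem-pore, 1 ion-activated and 2 auxiliary subunits. Their count was 5 without Thymus Tol 4, a fit for which the share of all genes is not given here. Of the partner genes, 4 of 19 had an unadjusted p under 0.05 (21.1%, against 24.4% of all genes), all lower in Tol, where 11.1% of all genes were. The ion-activated share of summed CPM per kilobase was 33.0% ± 1.97 in the Tol thymi and 29.9% ± 0.448 in the WT thymi (SD, n = 4), given without a test.

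Kcnk6, a background channel subunit, had the lowest p in thymus, with 12.1, 12.1, 13.4 and 12.01 CPM in Tol and 16.8, 18.2, 14.6 and 14.8 CPM in WT. All Tol thymi were below all WT thymi, with a log2 fold change of -0.37 ± 0.09 (SE), an unadjusted p of 0.00129 and an adjusted p of 0.0819 (edgeR). Kcnn3, a small-conductance calcium-activated channel, read 8.20, 6.03, 7.13 and 6.68 CPM in Tol and 8.98, 11.0, 8.64 and 8.64 CPM in WT, again without overlap (-0.40 ± 0.12, SE; adjusted p = 0.0992, edgeR). Kcnd1 read 0.919, 0.599, 0.451 and 0.846 CPM in Tol and 1.504, 1.84, 0.828 and 1.32 CPM in WT, a low level at which the groups overlapped (-0.93 ± 0.29, SE; adjusted p = 0.111, edgeR). Kcnj15 and Kcnab2 followed, at -0.33 ± 0.12 and -0.15 ± 0.05 (SE). The leading thymus subunits can be read side by side. Kcnn4 read 99.8, 112, 112 and 101 CPM in Tol and 100.2, 106, 94.1 and 104 CPM in WT, with a log2 fold change of 0.07 ± 0.06 (SE). Kcna3 read 66.8, 40.1, 44.6 and 42.2 CPM in Tol and 68.2, 60.3, 57.9 and 68.7 CPM in WT, so that 3 Tol thymi were below all WT thymi and Tol 1 was not. Kcnk5 stood at 9.34 ± 1.18 CPM in WT and 11.4 ± 0.880 CPM in Tol (SD, n = 4; adjusted p = 0.141, edgeR). It read 11.2, 11.1, 10.6 and 12.6 CPM in Tol and 9.68, 7.65, 10.4 and 9.63 CPM in WT. All Tol thymi were thus above all WT thymi for Kcnk5, the reverse of Kcnk6 and Kcnn3.

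The thymus counts turned on a single library. Without Thymus Tol 1, the thymus comparison called 5 members, all lower in Tol: Kcna3 (-0.58, adjusted p = 0.00603), Kcnn3 (-0.48, 0.0228), Kcnk6 (-0.35, 0.0316), Kcnq3 (-0.57, 0.0358) and Kcnd1 (-1.10, 0.0418), with adjusted p values from edgeR. Adipocyte markers stood at 0.267 in that library and at 1.81 to 3.62 in the other 7 thymi. The thymocyte list ran from 9.18 to 9.42 over all 8, but its genes differed. Rag1 read 3917, 2849, 3814 and 2642 CPM in Tol and 4548, 4398, 4054 and 4973 CPM in WT, without overlap. Cd3e read 433, 486, 518 and 479 CPM in Tol and 445, 454, 454 and 450 CPM in WT. The groups also overlapped for Cd4, Cd8a, Dntt and Ptcra. The part of adipocytes or thymocytes in the values of the 5 members was not tested. The share of all genes called without Thymus Tol 1 is not given here, so the 5 calls are not read as a trait of the family.

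In cerebrum no member of the 77 tested passed in edgeR, where 0.00641% of all genes did. At an unadjusted p under 0.05 there were 9 members, all higher in Tol (11.7%, against 9.66% of all genes in either direction, 4.82% higher and 4.85% lower). The median log2 fold change was 0.07 for the members and -0.005 for all genes. The members' median was -0.0014 without Cerebrum WT 4, 0.0053 without Cerebrum Tol 2 and 0.127 without Cerebrum WT 3. DESeq2 gave 2 members, Kcnj6 and Kcnj2. The 9 members were 4 voltage-gated, 2 inward rectifier, 2 ion-activated and 1 silent subunit. Their count was 5 without Cerebrum Tol 1 or Tol 4, 14 without Cerebrum WT 2 and 3 without Cerebrum WT 4. The shares of all genes in those fits are not given here, so these counts are not read as a trait of the family. Kcnj6, a rectifier opened by G proteins, read 38.5, 39.9, 43.4 and 33.7 CPM in Tol and 32.9, 30.04, 24.2 and 28.3 CPM in WT. All Tol cerebra were above all WT cerebra, with a log2 fold change of 0.43 ± 0.11 (SE), an unadjusted p of 0.00293 and an adjusted p of 0.261 (edgeR). Kcnj2, the strong rectifier next to Kcnj16 on chromosome 11, read 39.9, 49.9, 34.9 and 51.3 CPM in Tol and 19.2, 17.2, 38.7 and 16.9 CPM in WT. The groups overlapped through Cerebrum WT 3, the WT library with high striatal markers, and the log2 fold change was 0.94 ± 0.27 (SE; adjusted p = 0.318, edgeR). Without Cerebrum WT 3 it was 1.30 with an adjusted p of 0.0371 (edgeR), the only member called in that fit. Without Cerebrum WT 3 and Cerebrum Tol 4 together it was 1.22 with an adjusted p of 0.111 (edgeR), and no member was called. Kcnma1 read 486, 476, 528 and 469 CPM in Tol and 474, 386, 361 and 378 CPM in WT, with Cerebrum WT 1 inside the Tol range (0.29 ± 0.09, SE; adjusted p = 0.352, edgeR). Kcnv1 and Kcnq3 had log2 fold changes of 0.44 ± 0.17 and 0.28 ± 0.11 (SE). Summed over classes, the auxiliary share of the Tol cerebra was 24.7% ± 0.833 and that of the WT cerebra 27.6% ± 1.27 of CPM per kilobase (SD, n = 4), with no overlap of libraries and no test. The WT share was 27.0% without Cerebrum WT 3, the highest at 29.5%. The voltage-gated share had the reverse order, also without overlap, at 39.1% ± 0.677 in the Tol cerebra and 36.9% ± 0.894 in the WT cerebra (SD, n = 4).

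In cerebellum there were only 2 Tol libraries, of which Tol 2 stood far from the WT libraries. No member of 80 tested passed in edgeR, where 0.006% of all genes did, and DESeq2 gave 0 as well. At an unadjusted p under 0.05 there were 3 members, all higher in Tol (3.75%, against 3.17% of all genes in either direction, 1.95% higher and 1.22% lower): Kcnb2, Kcnk2 and Kcna3. Their adjusted p was 0.957 in each case (edgeR). This count was 0 without WT 4, a fit for which the share of all genes is not given here. In the fits without Tol 1 or Tol 2 the spread comes from the 4 WT cerebella, and the lone Tol library is assumed to vary like them. The counts of those fits at an unadjusted p under 0.05 are therefore not given. Kcnb2, a delayed rectifier, read 18.5 and 38.0 CPM in Tol 1 and Tol 2 and 16.2, 16.5, 16.2 and 11.3 CPM in WT. In Cerebellum Tol 2, 33 of the 71 members with a WT mean of at least 1 CPM were over 2-fold from that mean (46.5%, against 11.8% of all genes), and in Cerebellum Tol 1 there were 4 (5.63%, against 3.26%). Kcnj12 read 79.2 and 17.1 CPM and Kcng4 173 and 43.4 CPM in Tol 1 and Tol 2, so that for these cerebellar subunits Tol 1 lay within or near the WT range and Tol 2 far below it. Kcnc2, Kcnf1 and Kcnip2 had the reverse order, with 2.14 and 209, 1.81 and 18.7 and 1.44 and 48.2 CPM in Tol 1 and Tol 2. Without Tol 2 the median log2 fold change of the members went from 0.32 to -0.15, and that of Kcnf1 from 1.96 to -0.57. Kcne2 had a fitted value of -7.77 ± 3.65 (SE), which rests on the libraries with choroid plexus markers, Cerebellum WT 2 and WT 4, and on counts near 0 in the others, so it gives no fold change.

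**Figure D5:**
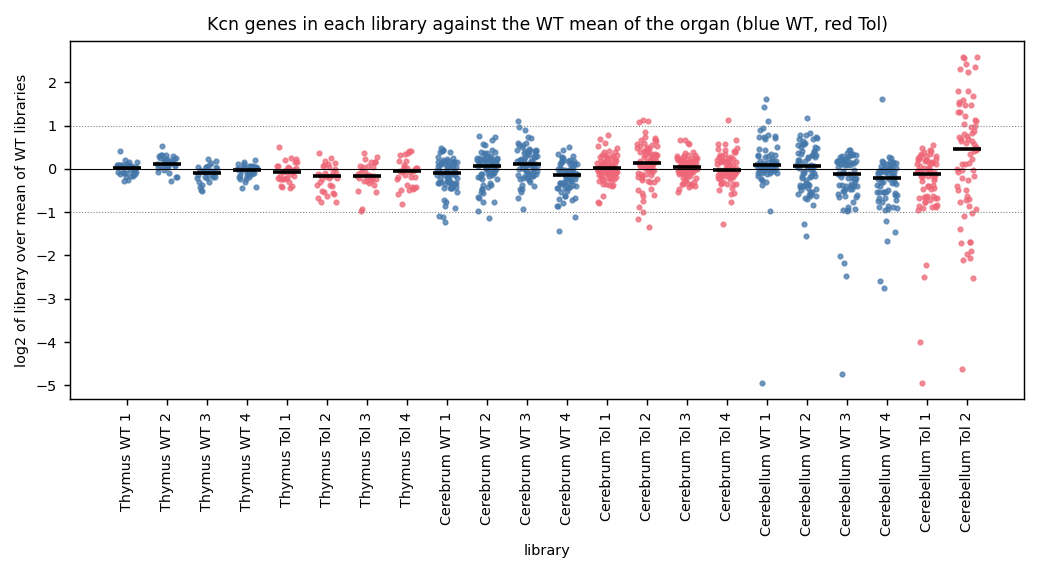
Log2 ratio of each member to the mean of the WT libraries of its organ (vertical axis, pseudocount 0.5 CPM, members with a WT mean of at least 1 CPM), with 1 column of points for each library and the median as a bar. Cerebellum Tol 2 has the widest spread, with a median of 0.46, and the thymus libraries the narrowest.

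Whether the effect of Tol differed between cerebrum and thymus was tested with an interaction term over the 16 libraries of these organs. No member of 81 tested passed in edgeR, where 0.107% of all genes did, and 7 had an unadjusted p under 0.05, all with a higher effect in cerebrum (8.64%, against 16.5% of all genes in either direction, 6.64% higher and 9.81% lower). DESeq2 gave 2, Kcnj2 and Kcnma1. For Kcnj2 the difference of effects was 1.30 ± 0.33 on the log2 scale (SE; adjusted p = 0.113, edgeR), from -0.37 in thymus and 0.94 in cerebrum. In thymus Kcnj2 read 3.48, 3.73, 3.44 and 3.00 CPM in Tol and 4.75, 4.79, 3.47 and 4.64 CPM in WT. For Kcnma1 the difference was 0.57 ± 0.18 (SE; adjusted p = 0.1405, edgeR). Kcnj15 had 2.14 ± 0.61 (SE; adjusted p = 0.126, edgeR), but its level in the cerebra was 0 to 0.374 CPM, about that of a few counts. Without Thymus Tol 1 the interaction called 4 members, Kcnq3, Kcnma1, Kcnj15 and Kcnj2, and without Cerebrum WT 3 it called 1, Kcnj2 (adjusted p = 0.00358, edgeR). The shares of all genes called in those fits are not given here.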

How the data were processed

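RNA from frozen thymus, cerebrum and cerebellum was prepared by the authors with a stranded mRNA kit and sequenced as single-end 65-base reads. Per the labels and the study's methods, the authors obtained the deposited estimated counts per gene with Salmon 0.14.1 on GRCm38 transcripts to which the Tol transcript had been added, and tested them with edgeR 3.9. How transcripts were summed to genes, and the strand setting of the counting, are not given in the sources used here. The deposited estimated counts are whole numbers and needed no rounding. Of 34585 listed identifiers, 34530 were found in the GRCm38 annotation, which gave symbols, classes of transcript, lengths and coding sequences. There were 0 unused sample columns.

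The 3 organ tables were joined by gene. Libraries were scaled by trimmed mean of M values, genes with low counts were removed with filterByExpr, and edgeR 4.0.16 in R 4.3.3 (glmQLFit and glmQLFTest) was run with Benjamini-Hochberg adjustment over all genes tested. The organ comparisons used 1 fit of the 12 WT libraries, with calls at an adjusted p under 0.05 and a fold change over 2. Tol and WT were compared within each organ, and the interaction over the 16 cerebrum and thymus libraries, with calls at an adjusted p under 0.05. P-values set a difference between group means against the spread between libraries within groups, estimated over all groups of a fit. Precision is limited by counting at low levels: 3 counts equal 0.0863 to 0.206 CPM over the libraries. Ratios of pooled counts were scaled by the summed totals of the libraries pooled. They have exact 95% binomial intervals, which cover counting error only, since the reads carry no molecular identifiers.

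Members, classes, partner genes and marker lists were chosen with earlier results of these data known. Genes were named by rule: in each organ the 10 highest per kilobase, the highest of each subfamily, the 6 largest and 6 most negative called differences of each organ comparison, the 5 lowest p-values of each Tol comparison and 3 of the interaction, and members within 100 kb of another. Genes outside this rule are said to be so in the text. Some members and sequences are not reported here by name, and all counts include them. The fits were also run on simulated counts, whose outcome is not given here and on which no result rests. Alternatives were DESeq2 1.42.0 and its size factors, no filter, at least 10 counts in every library, leaving out each library, a replicate block, GC and length trend removal, all 22 libraries in 1 fit, Tol libraries in place of WT, and other lengths for the class shares. The authors' edgeR output was not used.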

Additional observations from a re-analysis of the deposited data

Results flagged for a closer look

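For genes shown library by library and for class shares, a library was singled out where its gap to the nearest of the 4 libraries of its group passed Dixon's 95% critical value as a share of the group's whole range. This held in 18 of 137 groups tested. Chance gives about 1 in 20 for groups chosen in advance and independent of each other. These genes were chosen with the data known and the groups share libraries, so the count is not set against that rate. In the WT cerebra, WT 3 was the highest for Kcnj4 (139.6 CPM, others 85.7 to 90.7), Kcnab1 (334 CPM, others 105 to 135), Kcnj2 (38.7 CPM, others 16.9 to 19.2) and the auxiliary share (29.5%, others 26.7 to 27.2%). Cerebrum WT 2 was the lowest for Kcnd1, at 7.98 CPM against 13.0 to 13.2 CPM. In the Tol cerebra, Tol 2 was the highest for Kcng4, at 25.9 CPM against 7.38 to 9.92 CPM, and the lowest for the ion-activated share, at 6.09% against 6.87 to 6.94%. Tol 3 was the lowest for Kcnv1, at 141 CPM against 165 to 169 CPM.

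In the WT cerebella, WT 1 was the highest for Kcnj4 (3.15 CPM, others 0.386 to 0.828) and Kcnip2 (27.1 CPM, others 1.12 to 3.40). WT 2 was the highest for Kcnj10 (902 CPM, others 357 to 423) and the inward rectifier share (19.998%, others 14.3 to 14.8%). WT 4 was the highest for Kcng4 (209 CPM, others 177 to 181) and the lowest for Kcnb2 (11.3 CPM, others 16.2 to 16.5). In the thymi, Tol 1 was the highest of the Tol libraries for Kcna3 (66.8 CPM, others 40.1 to 44.6) and Tol 3 for Kcnk6 (13.4 CPM, others 12.01 to 12.1). Among the WT thymi, WT 2 was the highest for Kcnn3 (11.0 CPM, others 8.64 to 8.98) and WT 3 the lowest for Kcnj2 (3.47 CPM, others 4.64 to 4.79).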

How the results depend on the processing

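The organ counts of called members (45, 74 and 65 for cerebrum minus cerebellum, cerebrum minus thymus and cerebellum minus thymus) moved by over 1.5 times under 2 settings. Requiring at least 10 counts in every library left 30 members to test and gave 15, 27 and 22 calls. Tol libraries in place of WT gave 29 calls for cerebrum minus cerebellum, and 51 without Cerebellum Tol 2, where the cerebellum is 1 library and the other groups supply the spread. DESeq2 called 2 members in thymus, 2 in cerebrum and 2 in the interaction, where edgeR called 0, and the cause was not tested. Leaving out each library in turn gave 45 to 49, 73 to 75 and 63 to 67 organ calls, and for Tol against WT 0 to 5 in thymus, 0 to 1 in cerebrum, 0 to 0 in cerebellum and 0 to 4 in the interaction, the highest without Thymus Tol 1 for thymus and the interaction and without Cerebrum WT 3 for cerebrum. The Tol difference of Kcnf1 in cerebellum ran from -0.57, without Cerebellum Tol 2, to 2.83, without Tol 1. Removing GC and length trends and fitting all 22 libraries together called 0 members in each Tol comparison. The members with an unadjusted p under 0.05 went from 9 to 2 in cerebrum with trends removed. In the 22-library fit they went from 9 to 2 in thymus, from 9 to 4 in cerebrum and from 3 to 16 in cerebellum. The shares of all genes at that threshold in these fits are not given here.

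Replicate numbers were not taken as pairs. Correlations of same-numbered libraries ran from -0.23 to 0.56 between genotypes of an organ and from 0.00141 to 0.0782 between organs of a genotype. Whether organs with the same number came from 1 mouse is not given in the sources used here. With the replicate block, the organ calls were 45, 74 and 64, and the Tol calls 0 in thymus, 0 in cerebrum, 0 in cerebellum and 0 in the interaction. With the block, 16 in place of 9 members in cerebrum had an unadjusted p under 0.05, and the share of all genes is not given here. The median log2 fold change of the members in cerebellum was then -0.06 in place of 0.32.

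Class shares depended on the length used. With the median transcript length, auxiliary shares were 34.6%, 31.0% and 17.0% in thymus, cerebrum and cerebellum and ion-activated shares 23.3%, 8.64% and 10.7%. Silent shares were then 4.50% in cerebrum and 3.31% in cerebellum, the inward rectifier share 13.1% in cerebrum, the tandem-pore share 8.05% in cerebellum, and voltage-gated shares 29.0% in thymus and 47.2% in cerebellum, so that the auxiliary class was the largest in thymus. Without division by length, voltage-gated shares were 37.3%, 52.7% and 55.5%, ion-activated 21.1%, 9.46% and 11.3%, and tandem-pore 6.47%, 3.50% and 5.56% in the 3 organs. Auxiliary shares were 15.9% and 10.6% and silent shares 5.64% and 2.91% in cerebrum and cerebellum, and inward rectifier shares 11.3% in thymus and 12.8% in cerebrum.

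For the genes and comparisons chosen by the naming rule, 953 values under the alternatives kept their direction and side of the threshold, 14 passed it newly, 1 changed sign (Kcnf1, above) and 3 no longer passed it: Kcnk3 with Tol libraries (-1.55), and Kcnq1 with Tol libraries (-0.73) or without Thymus WT 4 (-0.97). Other genes and comparisons are outside this tally. Depth limits members near 3 counts.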
